A study of Mus musculus with 8 samples.

Results

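The genes described here build and police the mitotic spindle: 50 genes for mitotic kinases and cyclins, spindle motors, kinetochore and centromere proteins, the spindle checkpoint, cytokinesis and mitotic chromosome structure. They were chosen by name, and a probe set stood for a gene where the gene was the only symbol the platform annotation gave it, with the highest mean over all arrays deciding between probe sets. Of the 50, 49 had such a probe set, out of 19938 genes named on the array, and all 49 passed the filter on low signal, as did 11926 genes in all. Ccnb1, which encodes cyclin B1, had no probe set under its name in the annotation used here.

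RNA came from mouse naive CD4 T cells that were sorted and then stimulated through CD3 and CD28 for 24 hours in the presence of IL6 and IL21 and of antibodies against IL-4, IFNg and TGFb; the labels call the cells Tfh (follicular helper T) cells, and both groups shared this culture. The 4 arrays labelled WT carried wild-type cells, and the 4 arrays labelled KO carried cells of mice with a conditional Bcl6-/- genotype restricted to T cells. The promoter that drives the deletion, the strain and the age are not given in the sources used here. Nothing in the labels ties an array to a mouse, so a p-value here rests on the spread among arrays of a group, which may be technical.

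Mitosis separates the copied chromosomes. Cyclin B with Cdk1 starts it, microtubules and motor proteins build the spindle, kinetochores tie each centromere to the spindle, and the checkpoint holds back the anaphase promoting complex until every kinetochore is attached. Most of these genes are silent in resting cells and are transcribed late in the cell cycle, through MuvB complexes with B-Myb and FoxM1 at promoter elements called CHR and through NF-Y at CCAAT boxes. Naive CD4 T cells are quiescent and enter the cycle after stimulation through the T cell receptor and CD28. In RNA from a whole culture, more cells in late cell cycle phases and more RNA per cell cannot be told apart.

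The promoter elements are shown for the genes that passed the test over 8 arrays (Nusap1, Sgo2a, Knl1 and Cenpe) and for Cdk1 and Ccnb1, the pair that defines mitotic entry. Each sequence is the 150 bases before the RefSeq transcription start (GRCm38.p6), 5′ to 3′ on the strand of the gene. Capitals mark CCAAT (or ATTGG on the other strand), TTTGAA (or TTCAAA) and its variant TTTAAA, the letters searched for the CCAAT box and the CHR.
Nusap1, chr2:119618148-119618297, plus strand: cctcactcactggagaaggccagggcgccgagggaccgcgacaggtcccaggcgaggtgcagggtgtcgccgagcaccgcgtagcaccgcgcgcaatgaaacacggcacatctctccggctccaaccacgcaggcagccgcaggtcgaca
Sgo2a, chr1:57985190-57985339, plus strand: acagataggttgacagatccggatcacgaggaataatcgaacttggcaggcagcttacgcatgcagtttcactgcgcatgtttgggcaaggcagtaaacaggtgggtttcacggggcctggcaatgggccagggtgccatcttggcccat
Knl1, chr2:119046969-119047118, plus strand: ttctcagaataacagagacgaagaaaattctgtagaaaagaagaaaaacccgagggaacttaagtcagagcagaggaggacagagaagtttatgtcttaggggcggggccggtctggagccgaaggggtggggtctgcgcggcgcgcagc
Cenpe, chr3:135212413-135212562, plus strand: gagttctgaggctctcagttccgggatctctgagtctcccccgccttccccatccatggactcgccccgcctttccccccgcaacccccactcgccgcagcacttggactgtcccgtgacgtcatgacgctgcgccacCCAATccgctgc
Cdk1, chr10:69352913-69353062, minus strand: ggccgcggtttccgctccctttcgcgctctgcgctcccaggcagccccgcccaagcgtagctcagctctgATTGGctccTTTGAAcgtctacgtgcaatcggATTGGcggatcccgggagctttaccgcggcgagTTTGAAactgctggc
Ccnb1, chr13:100786487-100786636, minus strand: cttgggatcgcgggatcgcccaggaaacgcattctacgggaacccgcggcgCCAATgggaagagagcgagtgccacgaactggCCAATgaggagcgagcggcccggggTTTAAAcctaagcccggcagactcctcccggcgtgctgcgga

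In Cdk1, TTTGAA stood at -71 and -15 relative to the start, and CCAAT boxes on the other strand at -208, -80 and -48. Ccnb1 had CCAAT boxes at -99 and -67 and TTTAAA at -42. Cenpe had a CCAAT box at -12 and TTTAAA at 15, after the start, and Knl1 had TTTGAA at 32. In Sgo2a the CCAAT box lay farther away, at -194, and Nusap1 had neither set of letters in its window.

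A window of 300 bases (250 before the start and 50 after it) was listed for 43 of the 50 genes, and the window listed first was used for each gene. CCAAT, on either strand, was found in 31 of the 43 (72.1%), against 37.9% of 27025 genes with a window and 38.2% of 9540 genes tested on these arrays. TTTGAA was found in 30 of the 43 (69.8%), against 18.1% of all genes and 11.4% of tested genes, and its sites centred on the start (median position 3). Both together stood in 24 of the 43 (55.8%), against 7.12% of all genes and 4.75% of tested genes. TTTAAA, which reads the same on both strands, was in 11 (25.6%, against 13.2% of all and 8.51% of tested genes). GCGGGAA, searched for E2F, was in 3 (6.98%), which lies above the 4.66% of all genes and below the 8.66% of tested genes. TTCCTNGAA, searched for Bcl6, was in Ncaph alone (2.33%, against 1.61% of all and 1.16% of tested genes). These are matches of letters, not sites shown to be bound. Aurkb, Ccna2, Cdc25c, Incenp, Kif20a, Smc4 and Tpx2 had no window listed. The median log2 difference between KO-labelled and WT-labelled arrays was 0.21 for the 30 measured genes with TTTGAA and 0.26 for the 12 without it, and 0.24 with and 0.21 without a CCAAT box.

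The mitotic genes were mostly higher in the KO-labelled arrays by a small amount. The difference (KO minus WT, log2) was above 0 for 46 of the 49, against 42.1% of all tested genes, and its median was 0.22, against -0.02 over all tested genes. Nusap1, Sgo2a, Knl1 and Cenpe rose (limma adjusted p under 0.05, the threshold used throughout), which is 4 of 49 against 0.646% of all tested genes called higher, and none of the 49 fell, against 0.671% called lower. At an unadjusted limma p under 0.05, 34 of the 49 were higher, against 6.15% of all tested genes, and 1, Bub3, was lower, against 10.5%. In 19 of the 49 every KO-labelled value lay above every WT-labelled value, against 3.1% of all tested genes, and in none did every KO-labelled value lie below, against 7.66%.

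**Figure D1:**
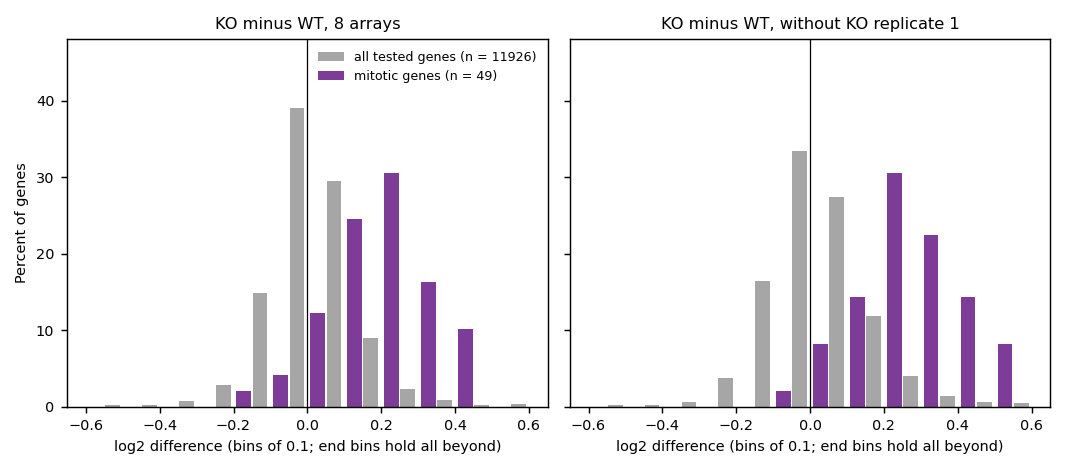
Percent of genes (vertical axis) by log2 difference, KO minus WT, in bins of 0.1, for the 49 mitotic genes (purple) and all 11926 tested genes (grey), over 8 arrays (left) and without KO replicate 1 (right). The mitotic genes are centred near 0.22 on the left and 0.29 on the right, and all tested genes near 0.

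The counts differed widely with and without the array KO replicate 1. In the mean over the 49 genes of the signal minus each gene's own mean, WT replicates 1 to 4 stood at -0.13, -0.13, -0.09 and -0.09, KO replicates 2 to 4 at 0.17, 0.22 and 0.14, and KO replicate 1 at -0.09. In this mean KO replicate 1 lay within the range of the WT-labelled arrays, and the other KO-labelled arrays lay above all of them. Gene by gene it lay above every WT-labelled array in 19 of the 49, the 4 called genes among them, and below every one in 8. It was the lowest KO-labelled array in 47 of the 49 genes, all but Ccna2 and Ndc80, whereas it was the lowest in 66.3% of the 8902 tested genes whose mean signal reached that of the dimmest mitotic gene. The upper quartile of its signal over all probe sets was 9.36, against 9.44 to 9.52 in the other 7 arrays, and its limma array weight was 0.176, against 0.617 to 3.32.

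Without KO replicate 1, 37 of the 49 genes rose (limma adjusted p under 0.05), against 3.88% of all tested genes called higher in that fit, and none fell, against 2.67%. The median difference was then 0.29, 48 of the 49 differences were positive, and in 42 of the 49 genes all 3 remaining KO-labelled arrays exceeded all WT-labelled arrays, against 11.3% of all tested genes. KO replicate 1 was the lowest KO-labelled array in 47 of these same genes, so leaving it out raises their differences by arithmetic. The counts without it describe how much that array matters and are no independent support for a rise. Among the 4 WT-labelled arrays, WT replicate 3 correlated most with KO replicate 1 in its deviations from the group mean (r = 0.46 over tested genes). With both left out 31 of the 49 rose, against 2.46% of all tested genes. The pair was picked from these data, and WT replicate 3 was among the higher WT-labelled arrays in the mean over the 49 genes. The count of 31 is therefore no independent support either. The other 7 fits that leave out 1 array called fewer. They gave 0 without WT replicate 2, WT replicate 3 or KO replicate 2 (in each, 0.184% of all tested genes were called higher) or KO replicate 3 (0.193%). They gave 1 (Nusap1) without WT replicate 1 (0.327%), and 2 (Nusap1 and Sgo2a) without WT replicate 4 (0.453%) or KO replicate 4 (0.277%).

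**Figure D2:**
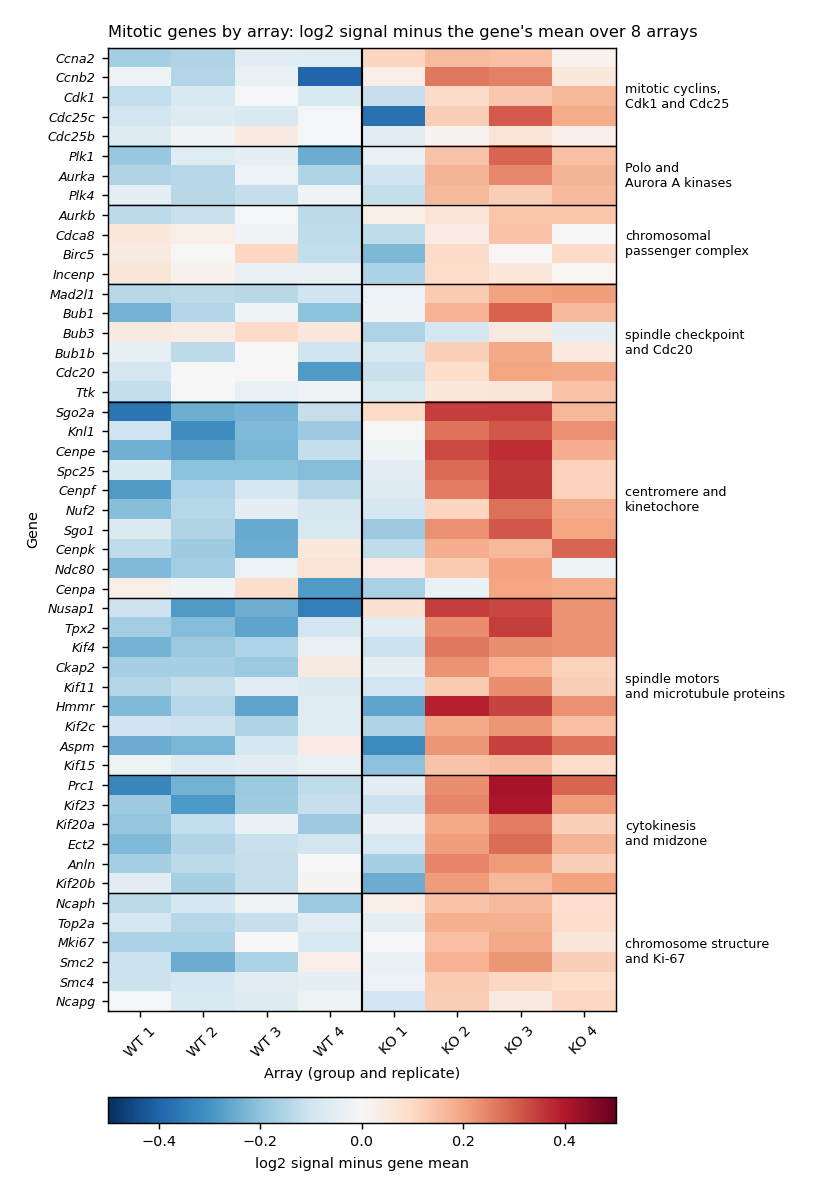
Log2 signal minus the gene's mean over the 8 arrays (colour, red above and blue below the mean) for 49 mitotic genes (rows, grouped by role) in each array (columns). Red fills KO replicates 2, 3 and 4 in nearly all rows, while KO replicate 1 is mostly pale or blue. Bub3 and the chromosomal passenger genes other than Aurkb depart from the pattern.

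Centromere and kinetochore genes held 3 of the 4 calls. All 10 differences were positive, with a median of 0.31 and a range of 0.10 to 0.48, and without KO replicate 1 the test passed for 8. Sgo2a encodes a shugoshin, which protects centromeric cohesin. Its log2 signal was 9.76, 9.88, 9.89 and 10.01 in WT replicates 1 to 4 and 10.22, 10.47, 10.47 and 10.29 in KO replicates 1 to 4. The groups did not overlap, and Sgo2a rose 1.39-fold (0.48 ± 0.0743 on the log2 scale, SE, n = 4 and 4, limma adjusted p = 0.0216). Its exact two-sided permutation p was 0.0286, the lowest value 4 against 4 arrays allow, and the same holds for all 19 genes whose groups were apart.

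Knl1 is the scaffold on which the checkpoint proteins Bub1 and BubR1 gather. It stood at 10.29, 10.08, 10.17 and 10.21 in the WT-labelled arrays and at 10.39, 10.66, 10.70 and 10.62 in the KO-labelled arrays. KO replicate 1 was only just above the highest WT-labelled value, and the gene rose 1.32-fold (0.41 ± 0.0746, SE, limma adjusted p = 0.0415). Cenpe, a kinesin that moves chromosomes towards the spindle equator, read 9.31, 9.28, 9.32 and 9.43 against 9.53, 9.88, 9.92 and 9.73. Its groups were apart as well, and it rose 1.35-fold (0.43 ± 0.0829, SE, limma adjusted p = 0.0462).

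The remaining kinetochore genes did not pass over 8 arrays. Spc25 and Nuf2, subunits of the Ndc80 complex that grips microtubules, differed by 0.35 and 0.24 (limma adjusted p = 0.0794 and 0.151), and Ndc80 itself by 0.18 (0.276). Cenpf, a large protein of the outer kinetochore, differed by 0.33 (0.0955), Sgo1, the other shugoshin, by 0.28 (0.198) and Cenpk, of the inner kinetochore, by 0.25 (0.22). Cenpa, the histone H3 variant that marks centromeres, differed by 0.10, with a 95% interval of -0.13 to 0.32 (limma adjusted p = 0.723). Ndc80 and Cenpa were the kinetochore genes that did not pass without KO replicate 1 (0.154 and 0.271).

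Among spindle motors and microtubule proteins, Nusap1 alone passed over 8 arrays, and all 9 passed without KO replicate 1. The 9 differences ran from 0.09 to 0.49, with a median of 0.26. Nusap1 binds and bundles microtubules around chromosomes, and it had the smallest p of all 49 genes. Its signal was 10.95, 10.77, 10.81 and 10.71 in WT replicates 1 to 4 and 11.13, 11.40, 11.39 and 11.28 in KO replicates 1 to 4. Every KO-labelled value exceeded every WT-labelled value, and the rise was 1.4-fold (0.49 ± 0.0739, SE, limma adjusted p = 0.0182).

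Tpx2, which activates Aurora A on the spindle, differed by 0.38 (limma adjusted p = 0.0581) with no overlap between the groups. Hmmr, a spindle assembly protein, differed by 0.35 (0.215), Kif4, a chromosome-bound kinesin, by 0.31 (0.108), Aspm, which organises spindle poles, by 0.26 (0.379) and Ckap2 by 0.24 (0.146). For the motors Kif2c, Kif11 and Kif15, which depolymerise microtubules or push spindle poles apart, the differences were 0.21, 0.20 and 0.09. KO replicate 1 lay below all WT-labelled arrays in Aspm (8.53, against 8.60 to 8.89) and Kif15 (10.48, against 10.62 to 10.66). Without that array Hmmr and Aspm differed by 0.49 and 0.41 (limma adjusted p = 0.00357 and 0.0134).

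**Figure D3:**
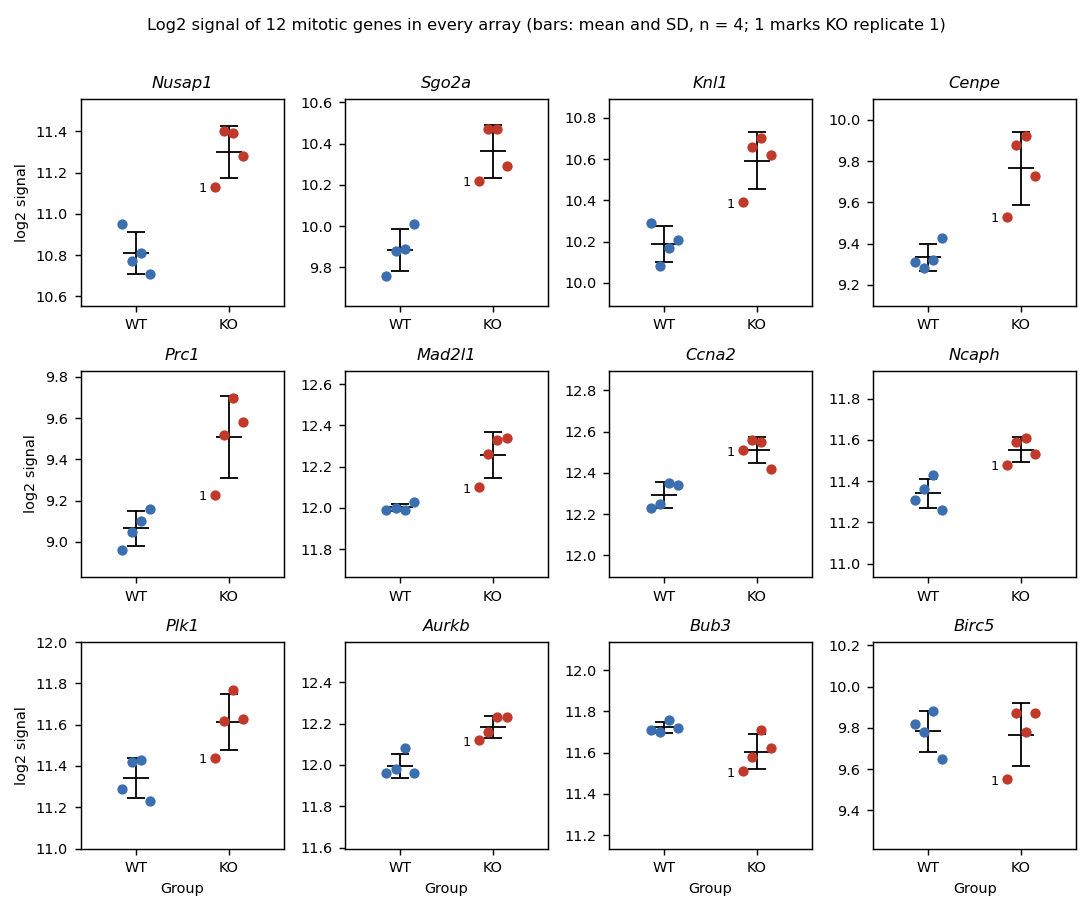
Log2 signal (vertical axis, 1 unit in every panel) of 12 mitotic genes in the 4 WT-labelled (blue) and 4 KO-labelled (red) arrays, with bars for the mean and SD; the digit 1 marks KO replicate 1. The groups are apart in every panel but Bub3 and Birc5, which show no rise. KO replicate 1 is lowest among KO-labelled arrays in 11 of the 12 panels (all but Ccna2).

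Cytokinesis and midzone genes gave 6 positive differences of 6, with a median of 0.28; none passed over 8 arrays and all 6 passed without KO replicate 1. Prc1, which crosslinks the antiparallel microtubules of the midzone, came closest. Its values were 8.96, 9.05, 9.10 and 9.16 against 9.23, 9.52, 9.70 and 9.58. The groups did not overlap, and the difference was 0.44 ± 0.0928 (SE, limma adjusted p = 0.0532). Kif23 and Ect2, which set the cleavage plane through RhoA, differed by 0.38 and 0.29 (0.0874 and 0.0962), Kif20a by 0.27 (0.0916), the actin-binding anillin gene Anln by 0.21 (0.268) and Kif20b by 0.17 (0.463).

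The mitotic kinases that act outside the checkpoint behaved alike in sign. Plk1, the Polo kinase of mitotic entry and exit, read 11.29, 11.42, 11.43 and 11.23 in the WT-labelled arrays and 11.44, 11.62, 11.77 and 11.63 in the KO-labelled arrays. The lowest KO-labelled value exceeded the highest WT-labelled value by very little, and the difference was 0.27 ± 0.0757 (SE, limma adjusted p = 0.11). Aurka, of centrosomes and spindle poles, differed by 0.24 (0.145) and Plk4, which starts centriole duplication, by 0.16 (0.271). Without KO replicate 1 all 3 passed.

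Cyclins, Cdk1 and the Cdc25 phosphatases had small differences, 0.02 to 0.30 over 5 genes, and none passed. Ccna2, the cyclin A of S and G2 phase, read 12.23, 12.25, 12.35 and 12.34 against 12.51, 12.56, 12.55 and 12.42. In this gene KO replicate 1 stood with the other KO-labelled arrays, and the difference was 0.22 ± 0.0516 (SE, limma adjusted p = 0.0763). Ccnb2, cyclin B2, differed by 0.30 (0.139) with no overlap, Cdk1 by 0.14 (0.325) and Cdc25c by 0.12 (0.71). Cdc25b, a phosphatase that activates Cdk1, differed by 0.02, with a 95% interval of -0.08 to 0.13 (0.882). Without KO replicate 1, Ccna2, Cdk1 and Cdc25c passed, and Ccnb2 and Cdc25b did not (limma adjusted p = 0.0554 and 0.529).

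Of the 6 checkpoint genes 5 had a positive difference and 1 a negative one, and none passed. Mad2l1, whose product Mad2 inhibits Cdc20, was tightly set in the WT-labelled arrays at 11.99, 12.00, 11.99 and 12.03, and read 12.10, 12.26, 12.33 and 12.34 in the KO-labelled arrays. All KO-labelled arrays were higher, and the difference was 0.26 ± 0.0583 (SE, limma adjusted p = 0.0687). Bub1, a checkpoint kinase, differed by 0.31 (0.0758), Cdc20, the activator of the anaphase promoting complex, by 0.18 (0.337), Bub1b, encoding BubR1, by 0.14 (0.316) and Ttk, encoding the kinase Mps1, by 0.09 (0.501). Mad2l1 and Bub1 passed without KO replicate 1, and the other 4 genes did not.

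Bub3, the WD-repeat partner of Bub1 and BubR1, had the negative difference, the most negative among the 49 genes. Its values were 11.71, 11.70, 11.76 and 11.72 in the WT-labelled arrays and 11.51, 11.58, 11.71 and 11.62 in the KO-labelled arrays. The groups overlapped only through KO replicate 3, and the difference was -0.12 ± 0.0513 (SE, limma adjusted p = 0.288). Without KO replicate 1 it was -0.09 (0.255).

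In the chromosomal passenger complex the kinase and its partners differed in size. Aurkb, Aurora B, which corrects faulty kinetochore attachments, read 11.96, 11.98, 12.08 and 11.96 against 12.12, 12.16, 12.23 and 12.23. Its groups were apart, with a difference of 0.19 ± 0.0492 (SE, limma adjusted p = 0.0927), and it passed without KO replicate 1 (0.0306). Birc5, survivin, read 9.82, 9.78, 9.88 and 9.65 against 9.55, 9.87, 9.78 and 9.87. The groups overlapped fully outside KO replicate 1, and the difference was -0.01 with a 95% interval of -0.19 to 0.16. For the scaffold Incenp the mean was 9.79 in both groups (interval -0.14 to 0.13), and for Cdca8, borealin, the difference was 0.03 (interval -0.12 to 0.18). None of these 3 passed without KO replicate 1 (limma adjusted p of 0.402 to 0.557), and whether they differ from Aurkb was not tested.

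Genes of mitotic chromosome structure and Ki-67 had 6 positive differences of 6, between 0.09 and 0.24, and none passed. Ncaph, a condensin subunit, read 11.31, 11.36, 11.43 and 11.26 against 11.48, 11.59, 11.61 and 11.53. These groups did not overlap, and the difference was 0.21 ± 0.0529 (SE, limma adjusted p = 0.084). Smc2 and Smc4, the condensin ATPases, differed by 0.24 and 0.15 (0.145 and 0.158), Ncapg by 0.09 (0.5) and Mki67, the proliferation marker that coats mitotic chromosomes, by 0.20 (0.14). Top2a, the topoisomerase that untangles sister chromatids, differed by 0.20 (0.127) in its brighter probe set and by 0.22 in its dimmer one, whose means were 6.59 and 6.81. Without KO replicate 1 all but Ncapg passed (Ncapg 0.085).

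**Figure D4:**
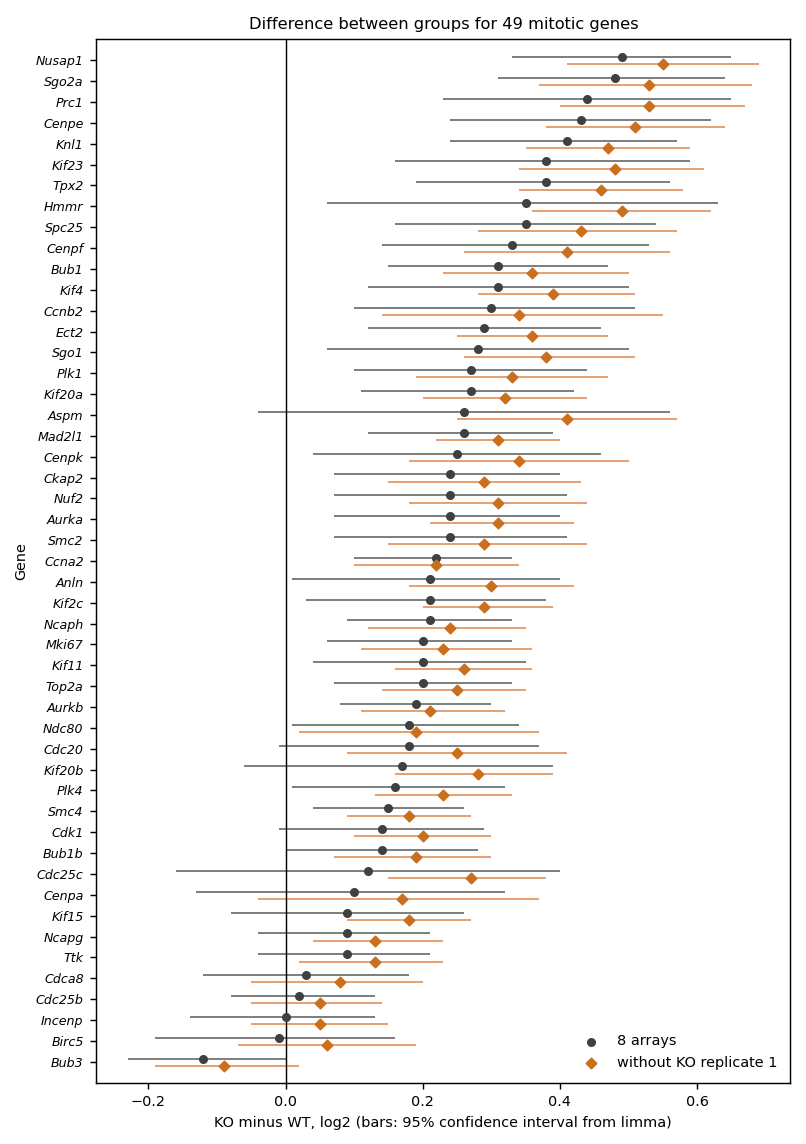
Difference between groups (horizontal axis, KO minus WT, log2) with its 95% confidence interval from limma for each of 49 mitotic genes, over 8 arrays (grey circles) and without KO replicate 1 (orange diamonds). Nusap1 (0.49) and Sgo2a (0.48) are at the top, Bub3 (-0.12) at the bottom, and leaving out the array narrows most intervals.

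The 49 genes moved together from array to array. The correlation of a gene with the mean of the other 48 over the 8 arrays was at least 0.9 in 27 genes, with a median of 0.918, and highest for Ect2 (0.988). It was lowest for Bub3 (-0.257), Birc5 (0.358), Incenp (0.461), Cdca8 (0.54) and Cenpa (0.543). The 8 arrays include both groups and share their normalization, so a difference between groups adds to these values. Outside the list, the 10 tested genes most correlated with the mean of the mitotic genes were Fam83d, Ccnf, Ncapg2, Parpbp, Naa25, Sass6, Frrs1, Fam122b, Rap1b and Ska2 (r of 0.97 to 0.992 over 8 arrays). Of these, Fam83d, Sass6, Ncapg2 and Ska2 belong to the lists of other mitotic genes described next, and Ccnf encodes cyclin F. In all, 1.5% of tested genes, the mitotic genes included, reached 0.9.

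Other spindle, kinase and kinetochore genes of mitosis had smaller median differences in the same direction. Of 34 other spindle, centrosome and cytokinesis genes, 28 differences were positive, with a median of 0.13. In that list Racgap1, the partner of Kif23 in the midzone, rose by 0.35 (10.6 ± 0.0718 to 11.0 ± 0.132, SD, n = 4, limma adjusted p = 0.0485) and Ckap2l, a spindle protein, by 0.26 (0.0465). Among 18 other mitotic kinases and phosphatases the median was 0.08. Nek6, a NIMA-family kinase, rose by 0.72 (8.63 ± 0.141 to 9.34 ± 0.166, SD, n = 4, limma adjusted p = 0.00853) and Melk by 0.31 (0.0318). Of 31 other kinetochore genes 25 differences were positive, with a median of 0.09 and no call. Knstrn had the smallest p (0.25, limma adjusted p = 0.0927). Over all tested genes 0.646% were called higher, so no call among 31 genes lies near that share.

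The remaining lists had medians closer to 0 and held 1 call. Of all tested genes 1.32% were called in either direction over 8 arrays, so few calls are no contrast in lists of this size. Among them, the anaphase promoting complex with separase and the condensin and cohesin genes also act in mitosis. Medians were 0.02 over 20 genes of the anaphase promoting complex and separase (smallest p Cdc26, -0.20, limma adjusted p = 0.143), 0.03 over 16 other condensin and cohesin genes (Ncapg2, 0.17, 0.24) and 0.04 over 24 E2F, DREAM and mitotic transcription factor genes (Rbbp4, -0.17, 0.115). Over 40 replication and licensing genes the median was 0.03, and Cdt1, a licensing factor, fell by 0.26 (limma adjusted p = 0.0423). It was -0.02 over 13 G1 cyclins, Cdks and inhibitors (Cdkn2d, -0.10, 0.315). Without KO replicate 1 the higher calls numbered 15 of 34 (spindle), 8 of 31 (kinetochore), 6 of 18 (kinases), 2 of 20, 2 of 16, 3 of 24, 1 of 40 and 1 of 13, in the order above, and Cdt1 was the only lower call. Of all tested genes 3.88% were called higher in that fit, and 1 of 40 lies near that share; 1 of 13 is a single gene, Cdkn2c. Foxm1, the transcription factor of late cell cycle genes, differed by 0.15 (0.223) over 8 arrays and was among the 3 transcription factor calls (0.0304). No test compared the mitotic genes with these lists.

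**Figure D5:**
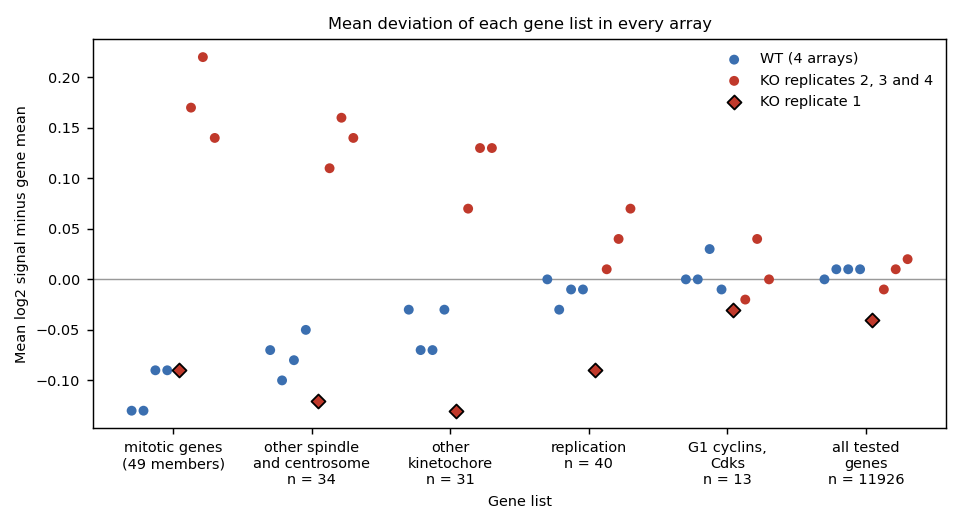
Mean over each gene list (horizontal axis) of the log2 signal minus the gene's own mean, in every array: WT-labelled (blue), KO replicates 2, 3 and 4 (red circles) and KO replicate 1 (red diamond). In the mitotic genes KO replicates 2 to 4 stand at 0.14 to 0.22 and KO replicate 1 at -0.09, while in the G1 list all arrays lie between -0.03 and 0.04. KO replicate 1 is below every other array in the other spindle (-0.12), other kinetochore (-0.13) and replication (-0.09) lists, and over all tested genes (-0.04).

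Checks of the samples bear on all of these values. Arrays correlated at r of 0.986 to 0.998 over tested genes, and no pair was identical (at most 4.55% equal values). All 6 T cell and 5 activation markers on the array were above the filter, as were all 6 Tfh markers. Cxcr5 (means of 7.89 in WT-labelled and 7.63 in KO-labelled arrays) and the activation marker Cd44 (7.98 and 8.13) were low. The single Bcl6 probe set was higher in the KO-labelled arrays (8.77 ± 0.123 and 9.15 ± 0.0497, SD, n = 4, limma adjusted p = 0.0303), and since its place in the gene is not given in the sources used here, it is no check of the labels; every direction is that of the arrays as labelled. Of the markers of other cells, 0 of 8 myeloid, 1 of 6 B cell and 1 of 3 erythroid genes were above the filter. So were 5 of 8 CD8 T and NK cell genes, whose mean signal was 7.84 to 8.27 in the WT-labelled and 7.82 to 7.94 in the KO-labelled arrays, and none of the 5 passed the test. Nkg7 and Prf1 differed by -0.89 and -0.44 (limma adjusted p = 0.0947 and 0.102). In both, every KO-labelled value lay below every WT-labelled value, against 7.66% of all tested genes. The groups overlapped in Gzmb, which differed by 0.35 (0.385), in Cd8a (-0.04) and in Cd8b1 (0.03). Ncr1, Klrb1c and Klrd1 were under the filter. Of these, Klrd1 was also lower in every KO-labelled array than in any WT-labelled array (means of 5.49 and 5.87), and the other genes overlapped. The part of such cells in the mitotic result was not tested.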

How the data were processed

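The authors deposited 1 log2 signal per probe set and array for 35556 probe sets; per the submitters' processing notes RMA and Partek were used, and per the labels' protocols biotinylated DNA was made from 100 ng of total RNA. Versions and genome build are not given in the sources used here. RMA makes array distributions nearly equal (medians 7.35 to 7.42), which hides a shift of all genes together.

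Gene names came from the platform annotation of each probe set: 21789 had 1 symbol, 1621 had several and were not used, and 12146 were unnamed; 21698 matched RefSeq by Entrez identifier. Genes were tested where the signal exceeded the 40th percentile of probe sets with 1 symbol in at least 4 arrays. The KO minus WT difference was fitted in limma 3.58.1 under R 4.3.3 (lmFit, eBayes, two-sided, no block), with Benjamini-Hochberg adjustment over 11926 genes; single genes also had an exact permutation test. The limma fit was tested on simulated data with independent noise, and the motif search on a string with planted sites. Array effects shared by many genes were not simulated, and the other steps were not tested in this way. Promoter windows came from RefSeq (GRCm38.p6); protein sequences were not used here.

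Members, lists and tests were chosen with earlier results of these data known. Values were printed by array for genes past the threshold and, in each role, for the gene with the smallest p and the largest opposite difference; the other lists give genes past the threshold or the smallest p. Foxm1, Cdkn2c, Cxcr5, Cd44 and the CD8 T and NK cell genes were named after their values were seen. The fit without KO replicate 1, given for each role, leaves out an array that these same genes set apart. That array also had the lowest array weight over all tested genes (0.176). Leaving out WT replicate 3 as well was a choice that rests on these same data. Alternatives were renormalization, centring, other filters, a trend with robust prior, array weights, averaged probe sets, the replicate block, left-out arrays and other thresholds. The number of arrays limits the precision.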

Additional observations from a re-analysis of the deposited data

Results flagged for a closer look

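In 10 of 116 groups of 4 arrays (49 genes and 9 averages over genes, in each group) 1 array lay far from the other 3; chance gives about 1 in 20. KO replicate 1 was low in Plk4 (10.48, the others 10.72 to 10.76), Kif20b (8.94, the others 9.35 to 9.40), Kif4 (9.46, the others 9.79 to 9.83) and Kif15 (10.48, the others 10.78 to 10.84), and in the mean deviation of the chromosomal passenger genes (-0.12, the others 0.06 to 0.08). WT replicate 3 was high in Aurka (9.91, the others 9.79 to 9.80) and Aurkb (12.08, the others 11.96 to 11.98). WT replicate 1 was high in Spc25 (9.57, the others 9.43 to 9.44). WT replicate 4 was high in Ckap2 (8.65, the others 8.42 to 8.44) and in the mean deviation of the spindle motor and microtubule genes (-0.07, the others -0.17 to -0.16). The cause was not tested.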

How the results depend on the processing

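The median difference of the 49 genes stayed within the spread between replicates under every alternative run on it (0.19 to 0.29 with 1 array left out), and no gene was called lower. The count of 4 higher calls (0.646% of all tested genes) was 15 with quantile normalization repeated (1.45%), 2 with arrays centred on their medians (0.402%), 2 with no filter and more genes tested (0.186%), 13 with an intensity trend and robust prior (1.27%), 42 with array weights (8.47%), 0 at a threshold of 0.01 (0.159%) and 16 at 0.1 (1.53%). It ran from 0 to 37 with 1 array left out (0.184% to 3.88%) and was 31 without KO replicate 1 and WT replicate 3 (2.46%). The 19 genes with groups apart, against 3.1% of all tested genes, became 31 with quantile normalization and 9 with centring. They numbered 19 to 42 with 1 array left out and 43 without those 2 arrays. The 42 were without KO replicate 1, where 11.3% of all tested genes were apart in that direction. For the other settings that share was not computed, and groups of fewer arrays are apart more easily. The 5 calls among the other cell cycle lists, an alternative chosen after seeing the data, became 13, 1, 1, 9, 69, 1 and 11 under the same 7 settings, 1 to 39 with 1 array left out and 36 without the 2 arrays. Of all tested genes, 1.32% were called in either direction over 8 arrays. That share was 2.7%, 0.654%, 0.291%, 2.97%, 16.6%, 0.226% and 3.92% in the 7 settings. It was 0.26% to 6.56% with 1 array left out and 3.71% without the 2 arrays. With the replicate number as a block, 0 of the 49 genes and 1 of the other genes passed (0.21% of all tested genes were higher, and 0.302% were called in either direction). Same-numbered arrays did not pair throughout (r of 0.0111, 0.145, -0.174 and 0.308 for numbers 1 to 4). For numbers 2 and 4 the same-numbered arrays were each other's closest match in the other group, and for numbers 1 and 3 they were not. The cause of these changes was not tested. Incenp and Birc5, near 0, changed sign with quantile normalization (0.02 and 0.00), array weights (0.04 and 0.03) and without the 2 arrays (0.04 and 0.09), and Incenp with centring (0.01). With 1 array left out, Incenp ran from -0.03 to 0.05, Birc5 from -0.06 to 0.06 and Cdca8 from -0.01 to 0.08.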
